A study of Homo sapiens with 32 samples.

Results

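The 35 genes described here encode the enzymes that build cholesterol and fatty acids, together with the regulators that set their transcription. They were chosen by name, with earlier results of these data known, from the 18583 genes with values in the deposited tables (47137 gene entries in all). Each of the 35 was found there and passed the filter on low counts in every comparison. RNA was sequenced from HGrC1 cells, an established line of non-luteinized human granulosa cells, the cells that surround the oocyte in the follicle and make its steroids. Cells from 4 separately frozen vials were each divided into 4 groups that received either the vehicle (0.05% DMSO) or perfluorooctane sulfonate (PFOS, a persistent fluorinated surfactant) at a low (0.01 µM), middle (0.1 µM) or high (1 µM) dose, renewed at every passage. RNA was taken after 6 and after 12 weeks, which gives 8 groups of 4 libraries. Every group, the controls included, grew in medium with serum and 100 nM of a sex steroid, named as estradiol in the sample labels and as testosterone in the study's methods. A single cell line stands for the tissue here, so the 4 vials are replicate cultures of that line and not donors.

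Cholesterol synthesis begins with acetyl-CoA, passes through mevalonate and the isoprenoids to squalene, closes the ring at lanosterol, and ends with a series of demethylations and double-bond changes. Fatty acid synthesis draws on the same acetyl-CoA, extends the chain on fatty acid synthase, and then elongates and desaturates it. Most of the genes of both pathways are targets of the sterol regulatory element-binding proteins (SREBPs), transcription factors that are held in the endoplasmic reticulum by the INSIG proteins and carried to the Golgi for activation by SCAP when membrane sterol is low. Granulosa cells need cholesterol as the precursor of progesterone and estradiol, and they take it both from lipoproteins and from this synthesis.

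Library totals lay between 17907057 and 18553350 counts, and none of the 48 pairs of replicates within a group was identical. Of the granulosa markers, GATA4 (60.9 to 87.9 TPM, the length-corrected RNA level), WT1 (32.4 to 44.8 TPM) and AMH (10.2 to 17.6 TPM) were expressed in all 32 libraries. The defining marker FOXL2 was near the floor at 0.32 to 1.19 TPM, aromatase (CYP19A1) had 0 counts in 31 of 32 libraries, and FSHR had no values in the tables. Keratin 8 (2948 to 3986 TPM) and collagen COL1A1 (405 to 722 TPM) were abundant. Liver transcripts (6 genes, albumin and alpha-fetoprotein among them) separated libraries. At 6 weeks their summed counts were 0 to 1 in the libraries of control and 0.01 µM PFOS and 88 to 141 at 0.1 and 1 µM. At 12 weeks the summed counts were 81 to 919 in the control and 72 to 174 in the PFOS groups.

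All 35 genes were well expressed. Per transcript length, the lowest mean level over the 32 libraries was 6.79 TPM for INSIG2 and the highest was 629.8 TPM for FDPS, farnesyl diphosphate synthase. After FDPS came FADS2, the delta-6 desaturase of polyunsaturated fatty acids, at a level of 475 TPM, FDFT1, squalene synthase, at 223 TPM, and SCD, the stearoyl-CoA desaturase that makes oleate, at 196 TPM. At the low end INSIG2 was followed by SC5D, sterol-C5-desaturase, at a level of 12.4 TPM and ELOVL6, the elongase of C16 chains, at 13.6 TPM. SREBF1 and SREBF2, the genes of the SREBPs themselves, had nearly the same mean level, 108 and 107 TPM. Their ranges over the libraries overlapped (78.4 to 145 TPM for SREBF1 and 89.2 to 119 TPM for SREBF2). Scaled to library size (CPM, the scale for comparing libraries), SCD varied most of the 35, with a highest value 2.33 times its lowest, and SREBF2 least, at 1.2 times.

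**Figure D1:**
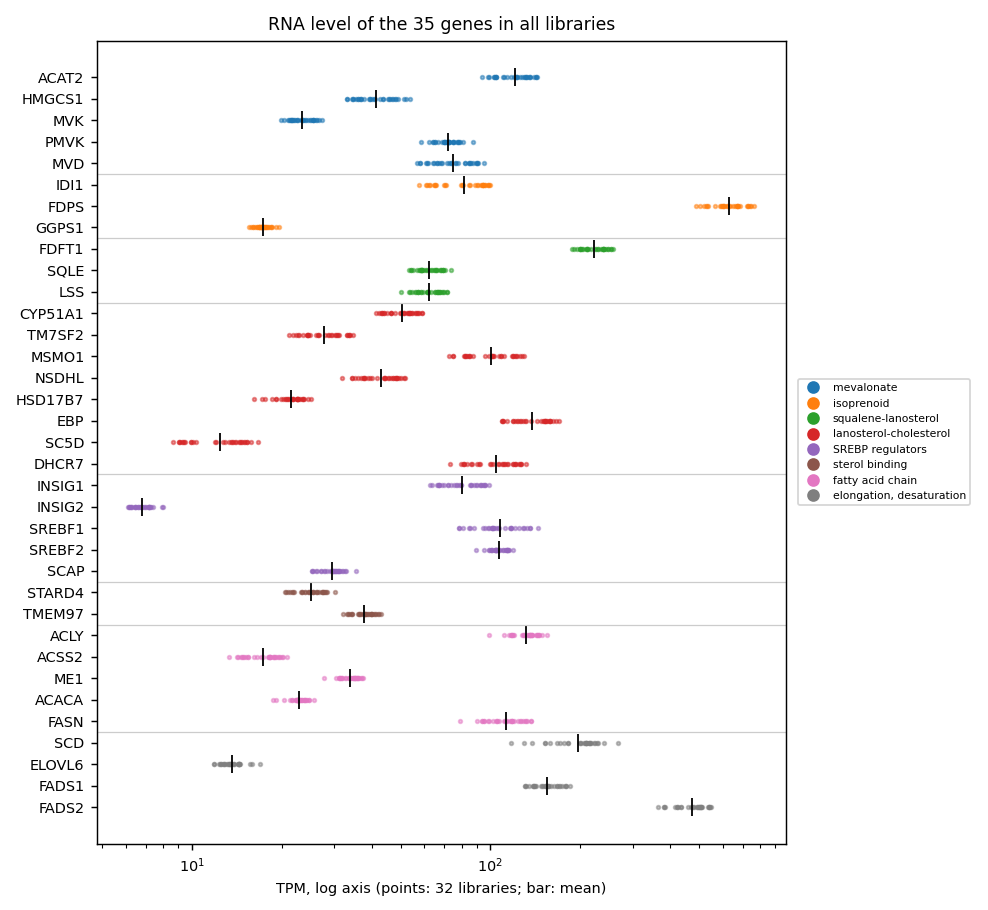
Level of each of the 35 genes in TPM (log axis), one point for each of the 32 libraries and a bar at the mean, coloured by step of the pathway. The genes span from INSIG2 at 6.79 TPM to FDPS at 629.8 TPM, and for most genes the libraries lie close together compared with that span.

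Because most of the genes share a transcriptional control, the 250 bases before the start sites of the 35 were read from RefSeq (GRCh38.p14), which held promoters for 31 of them. The CCAAT box, bound by NF-Y, and the GC box GGGCGG, bound by SP1, accompany SREBP sites in many sterol-regulated promoters. On either strand, CCAAT was present in 19 of 31 promoters (61.3%), against 33% of all 27305 promoters of the same length, and GGGCGG in 28 of 31 (90.3%), against 42.3%. The sterol regulatory element core TCACNCCAC was present in 1 of 31 (3.23%), against 0.875% of all. That one belongs to SREBF2. Only full matches to this core were counted, and sites that depart from it or lie outside the 250 bases were not sought. The 27305 promoters include those of genes without values in these libraries, and the shares among expressed genes alone were not computed. The stretches that hold the matches are shown for SREBF2, for 3 of the genes that passed the test below (MSMO1, SCD and STARD4) and for HMGCS1, which makes the precursor of mevalonate, each read 5′ to 3′ on the gene's strand, with CCAAT, its reverse complement ATTGG or the sterol element in capitals. They lie upstream of the transcription start at chr22:41832952-41833023 (plus strand) for SREBF2, chr4:165327464-165327659 (plus) for MSMO1, chr10:100346984-100347071 (plus) for SCD, chr5:111512641-111512716 (minus) for STARD4 and chr5:43313488-43313587 (minus) for HMGCS1.
SREBF2: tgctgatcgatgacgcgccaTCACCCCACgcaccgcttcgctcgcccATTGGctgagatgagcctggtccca
MSMO1: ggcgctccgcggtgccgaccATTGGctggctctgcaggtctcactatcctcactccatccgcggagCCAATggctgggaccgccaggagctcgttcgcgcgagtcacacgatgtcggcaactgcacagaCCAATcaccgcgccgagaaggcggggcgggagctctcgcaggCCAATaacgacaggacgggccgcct
SCD: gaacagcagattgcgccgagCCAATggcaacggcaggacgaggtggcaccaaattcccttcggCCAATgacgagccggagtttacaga
STARD4: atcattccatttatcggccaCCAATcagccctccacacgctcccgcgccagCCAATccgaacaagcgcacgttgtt
HMGCS1: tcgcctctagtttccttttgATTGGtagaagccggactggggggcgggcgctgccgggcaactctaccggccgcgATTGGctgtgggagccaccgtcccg
The MSMO1 stretch holds 4 CCAAT boxes and each of the others 1 or 2. SREBF1, FADS1 and ACACA, which also passed the test below, held neither CCAAT nor the sterol element core in their 250 bases. No stretch is therefore shown for them. A match of letters is a description of the window and was not measured as binding in these cells.

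The first question was whether PFOS changed the expression of these genes against the vehicle control of the same time. After 6 weeks, 6 of the 35 rose at 0.1 µM and none fell: MSMO1, SREBF1, STARD4, FADS1, SCD and ACACA. The rises were between 1.09-fold and 1.56-fold, and none reached the 2-fold change that the study required of its differentially expressed genes. At 0.01 and at 1 µM none of the 35 passed, and after 12 weeks none passed at any dose. To pass, a gene needed an adjusted p of 0.05 or less by edgeR's quasi-likelihood test, with the Benjamini-Hochberg adjustment made over all genes tested. By that rule 4.24% of all 12836 genes passed at 0.1 µM after 6 weeks (1.55% higher and 2.69% lower), 0.280% at 1 µM and 0% at 0.01 µM. In a bulk culture such as this, more cells of a kind and more RNA per cell cannot be told apart.

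MSMO1, on chromosome 4 (165327669-165343164, GRCh38.p14), encodes the C4-methylsterol oxidase that removes methyl groups on the way from lanosterol to cholesterol. In the 6-week control its levels in replicates 1 to 4 were 119, 136, 127 and 125 CPM, and at 0.1 µM PFOS they were 157, 160.2, 161 and 169 CPM. All 4 libraries of the PFOS group were above all 4 of the control. The log2 fold change was 0.35 (SE 0.07, 1.27-fold, edgeR adjusted p = 0.0124), and the exact two-sided permutation test gave p = 0.0286, the smallest that 4 against 4 libraries can give. At 0.01 µM the libraries read 123, 139, 153 and 152 CPM, and at 1 µM 156, 133, 153 and 159 CPM, and each group overlapped the control through 1 library. The log2 fold changes there were 0.16 (edgeR adjusted p = 0.473) and 0.24 (0.134).

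SREBF1, on chromosome 17 (17811334-17836986, minus strand), encodes SREBP-1, which drives mainly the fatty acid genes. Its control libraries at 6 weeks read 199, 218, 205 and 222 CPM, and those at 0.1 µM 273, 254, 296 and 272 CPM. Every exposed library again lay above every control library, with a log2 fold change of 0.37 (SE 0.08, 1.29-fold, edgeR adjusted p = 0.0281). The other doses overlapped the control only through their lowest library, 215 CPM at 0.01 µM (replicate 1) and 202 CPM at 1 µM (replicate 2), and the log2 fold changes were 0.22 (edgeR adjusted p = 0.462) and 0.21 (0.302).

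SCD, on chromosome 10 (100347233-100364826), showed the largest difference of the 6. The control libraries read 377, 513, 443 and 485 CPM and those at 0.1 µM 684, 663, 739.9 and 751 CPM. The exposed group stood clear of the control, and the log2 fold change was 0.64 (SE 0.15, 1.56-fold, edgeR adjusted p = 0.0396). At 0.01 µM SCD ran from 416 CPM in replicate 1 to 669 CPM in replicate 4, a spread that covered most of the distance between the control and 0.1 µM. At 1 µM, 3 libraries read 656, 699.8 and 708 CPM and replicate 2 read 508 CPM, inside the control range. The log2 fold changes were 0.36 (edgeR adjusted p = 0.49) and 0.50 (0.186).

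FADS1, the delta-5 desaturase, lies on chromosome 11 (61799627-61817003, minus strand) beside FADS2. Its level was 356, 410.2, 374 and 372 CPM in the control and 478, 449.6, 496 and 493 CPM at 0.1 µM, with no overlap. The log2 fold change was 0.34 (SE 0.08, 1.27-fold, edgeR adjusted p = 0.0365). For FADS2 the same comparison gave 666 to 780.3 CPM against 925 to 1033 CPM, also apart, with a log2 fold change of 0.43 (SE 0.12) that did not pass at an edgeR adjusted p of 0.0629.

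STARD4, a soluble carrier that moves sterol between membranes, lies on chromosome 5 (111496033-111512535, minus strand). It read 62.6, 66.1, 69.2 and 59.7 CPM in the control and 71.6, 71.1, 71.7 and 74.6 CPM at 0.1 µM. The groups were apart by a small margin, and the log2 fold change was 0.16 (SE 0.04, 1.12-fold, edgeR adjusted p = 0.0359). ACACA, acetyl-CoA carboxylase 1, the committed step of fatty acid synthesis, read 134, 131, 129.5 and 139.5 CPM in the control and 146, 140.4, 145 and 152 CPM at 0.1 µM. The highest control and the lowest exposed library nearly touched, and the log2 fold change was 0.12 (SE 0.03, 1.09-fold, edgeR adjusted p = 0.0451).

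**Figure D2:**
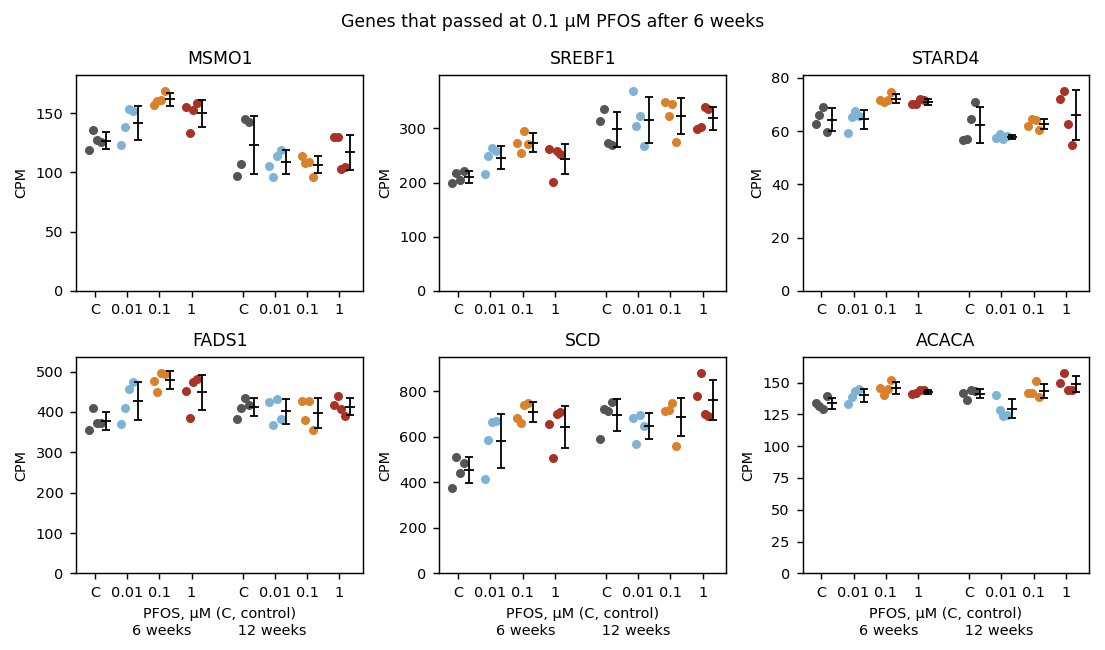
Level in CPM of the 6 genes that passed at 0.1 µM PFOS after 6 weeks, one point per library (replicates 1 to 4 from left to right), with the mean and SD of each group of 4 beside the points, for the control (C) and the 3 doses at both times. At 6 weeks all points at 0.1 µM lie above all control points, as for SCD (663 to 751 against 377 to 513 CPM), and at 12 weeks the 0.1 µM points overlap the control points for all 6 genes.

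These calls rested on few libraries. Without control replicate 1, which held the lowest 6-week level of 18 of the 35 genes, only MSMO1 still passed (2.98% of all genes did), and without replicate 3 or replicate 4 of every group none did (0.171% and 0.599% of all genes), although each of the 6 kept a positive fold change under every alternative tried. With the vial as a block, which the split of each vial over the 4 groups allows, 10 passed: MSMO1, SREBF1, STARD4, FADS1, SCD and ACACA together with ACAT2, HMGCS1, LSS and ELOVL6, while 5.76% of all genes passed in that fit. By DESeq2, which the study used, 12 of the 35 passed (5.26% of the genes to which it gave an adjusted p). The liver transcripts named above were also higher at 0.1 µM than in the control (4 of 4 tested passed), at 3.82 to 6.20 TPM in sum, and their part in the result was not tested. None of 6 proliferation genes passed, and of the granulosa, stromal, epithelial, endothelial and leukocyte markers only keratin 18 did, with a log2 fold change of -0.12 (edgeR adjusted p = 0.0405).

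Most other genes of the pathways gave positive but smaller or less certain differences at 0.1 µM after 6 weeks. Of the 35 genes, 30 had a positive log2 fold change, against 50.1% of all genes, and the median was 0.16, against 0.00 over all genes. Of the 35, 23 had an unadjusted edgeR p under 0.05 (20.8% of all genes did). The highest control library lay below the lowest exposed library for 18 of the 35, and the reverse held for none, where 5.89% and 6.31% of all genes did so. The list was chosen with earlier results of these data known, so such shares, here and below, describe it and do not test it. HMGCS1 read 107, 134, 118 and 127 CPM in the control and 158, 159, 153 and 174 CPM at 0.1 µM. The groups were apart, with a log2 fold change of 0.40 (SE 0.11) and an edgeR adjusted p of 0.0642. SQLE, squalene epoxidase, an early rate-limiting step, read 102, 116, 111 and 113 CPM against 123, 129, 123 and 119 CPM, also apart, with a log2 fold change of 0.15 (SE 0.05, edgeR adjusted p = 0.0776). FASN, fatty acid synthase, read 478, 561, 522 and 672 CPM against 636, 662, 713 and 727 CPM. Control replicate 4 overlapped the exposed group, and the log2 fold change was 0.29 (SE 0.12, edgeR adjusted p = 0.194).

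By step, the median log2 fold change at 0.1 µM after 6 weeks was 0.39 over the 4 elongation and desaturation genes, of which 2 passed. It was 0.20 over the 3 isoprenoid genes, 0.17 over the 3 genes from squalene to lanosterol and 0.16 over the 5 mevalonate genes, with none passing in these steps. The 8 genes from lanosterol to cholesterol had a median of 0.13, and MSMO1 alone of them passed. Of the 5 genes for acetyl-CoA, NADPH and the fatty acid chain ACACA alone passed, and of the 2 for sterol transfer and binding STARD4 alone.

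The regulators were not alike. INSIG1, which retains the SREBP complex and is itself an SREBP target, read 109, 133, 116 and 133 CPM in the 6-week control and 151, 158, 172 and 172 CPM at 0.1 µM, without overlap. Its log2 fold change was 0.41 (SE 0.13), with an edgeR adjusted p of 0.0854. SREBF2, which encodes the SREBP that drives mainly the sterol genes, read 321, 342, 337 and 361 CPM against 357, 364, 374 and 358 CPM. Control replicate 4 overlapped the exposed group, and the log2 fold change was 0.09 (edgeR adjusted p = 0.155). SCAP read 79.1, 79.2, 78.2 and 82.0 CPM against 74.1, 82.7, 77.6 and 71.9 CPM. INSIG2, the second retention protein, read 13.2, 14.5, 15 and 12.9 CPM against 17.0, 14.3, 15.6 and 14.7 CPM. For both the groups overlapped, with log2 fold changes of -0.06 (edgeR adjusted p = 0.451) and 0.14 (0.275).

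At 0.01 µM after 6 weeks, 31 of the 35 had a positive log2 fold change (median 0.09), against 51.1% of all genes, and 10 had an unadjusted edgeR p under 0.05 against 9.60% of all genes. EBP, the sterol isomerase, was the only one of the 35 whose groups did not overlap: it was higher, at 84.9 to 93.8 CPM against 79.2 to 84.3 CPM (2.07% of all genes were apart and higher there). The smallest edgeR adjusted p among the 35 was 0.462, and DESeq2 passed none of them either. At 1 µM, 31 of the 35 again had a positive log2 fold change (median 0.13), against 49.4% of all genes, 15 had an unadjusted edgeR p under 0.05 against 13.7% of all genes, and the smallest adjusted p was 0.134, for MSMO1. The groups were apart for 6, all higher with PFOS: CYP51A1, HSD17B7, EBP, STARD4, ACSS2 and ACACA (3.24% of all genes were apart and higher). By DESeq2 MSMO1 and SCD passed at this dose (2.08% of the genes with an adjusted p). The 3 dose comparisons share their 4 control libraries, so their values are set side by side and are not independent of each other.

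Replicate 2 of 1 µM stood below the other 3 libraries of its group for most of these genes. The summed level of the 35 was 3219 TPM there and 3646 to 3701 TPM in the others. Without replicate 2 of every group, 5 of the 35 rose at 1 µM (ELOVL6, FADS1, IDI1, MSMO1 and SREBF1, where 1.39% of all genes passed), and without that library alone MSMO1 and SREBF1 did (0.946% of all genes). In the 6-week control the summed level was 3252 ± 214 TPM (SD, n = 4), at 0.01 µM 3645 ± 375 TPM, at 0.1 µM 3840 ± 30.6 TPM and at 1 µM 3558 ± 227 TPM. The 4 libraries at 0.1 µM were closest to each other in this sum. The median within-group coefficient of variation of the 35 genes was 4.36% there against 6.43% in the control. It was 8.09% at 0.01 µM and 5.81% at 1 µM. Over all genes it was also lowest at 0.1 µM, at 5.05%, against 5.78% in the control, 5.50% at 0.01 µM and 5.30% at 1 µM.

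**Figure D3:**
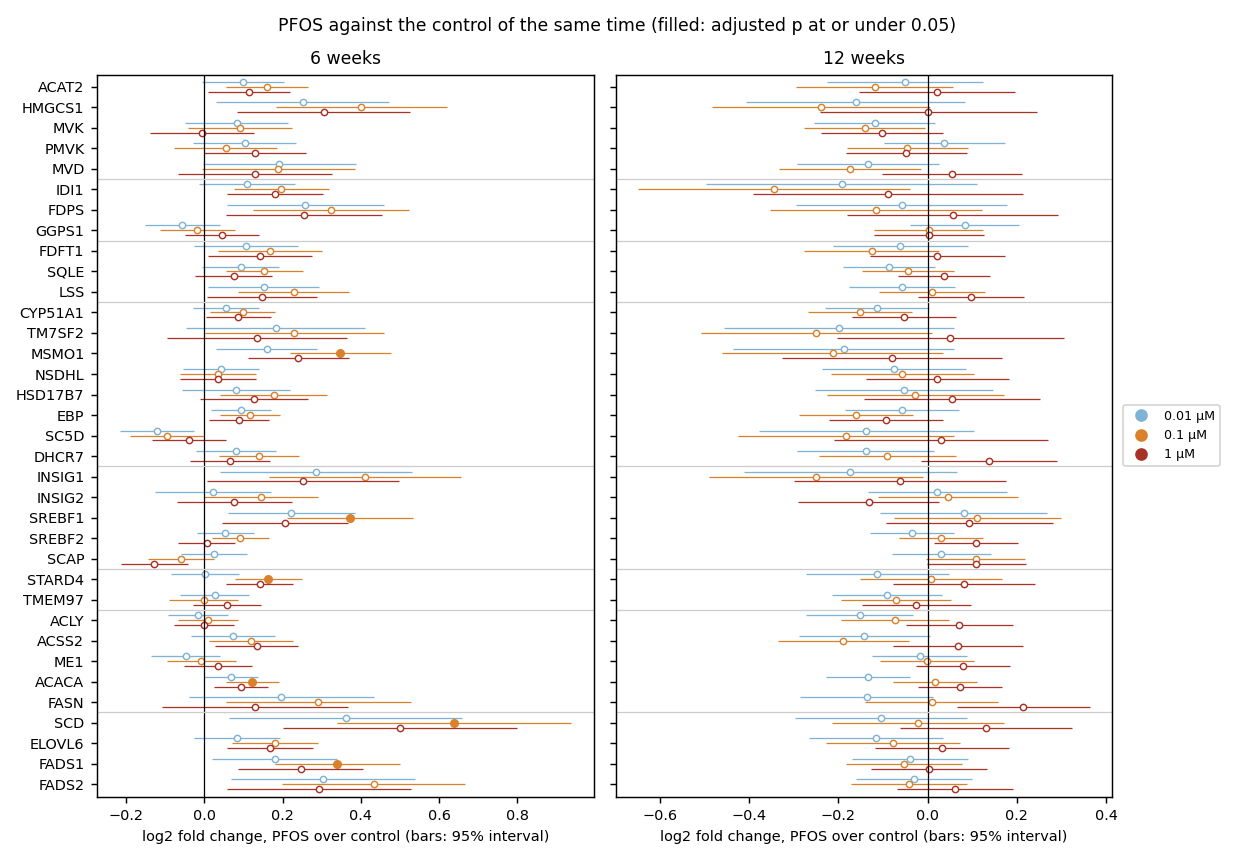
Log2 fold change of each of the 35 genes, PFOS over the control of the same time, at 6 weeks (left) and 12 weeks (right), for the 3 doses; bars are 95% intervals, and filled points passed at an edgeR adjusted p of 0.05 or less. At 6 weeks most points lie right of 0 and the 6 filled points are at 0.1 µM, and at 12 weeks no point is filled.

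The direct comparison of 0.1 with 1 µM after 6 weeks found no difference that passed among the 35 (0.0857% of all genes passed), and 1 had an unadjusted edgeR p under 0.05 (6.25% of all genes). The log2 difference, 0.1 over 1 µM, was 0.11 for MSMO1 (95% interval -0.02 to 0.23), 0.17 for SREBF1 (0.01 to 0.33) and 0.14 for SCD (-0.16 to 0.44). It was 0.09 for FADS1 (-0.07 to 0.25), 0.02 for STARD4 (-0.06 to 0.11) and 0.03 for ACACA (-0.04 to 0.10). These intervals include differences as large as several of the rises over the control, so the doses were not shown to act alike.

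After 12 weeks none of the 35 passed against the control at any dose, while 0% of all 12742 genes passed at 0.01 µM, 1.07% at 0.1 µM and 0.220% at 1 µM. The numbers with an unadjusted edgeR p under 0.05 were 2, 5 and 2 of the 35, against 8.48%, 15.4% and 8.75% of all genes. The log2 fold change was positive for 5, 9 and 26 of the 35, against 51.1%, 48.1% and 48.3% of all genes, with medians of -0.09, -0.07 and 0.04. DESeq2 passed none of the 35 here. For 0.1 µM these numbers were 30 of 35 and a median of 0.16 at 6 weeks.

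The 6 genes that rose at 0.1 µM after 6 weeks overlapped the control at that dose after 12 weeks. MSMO1 read 97.2, 107, 146 and 143 CPM in the 12-week control and 114, 108, 108 and 96.6 CPM at 0.1 µM, and its log2 fold change was -0.21 (95% interval -0.46 to 0.04). The control itself was split here, with replicates 1 and 2 below replicates 3 and 4. SCD read 591, 722, 716 and 751 CPM in that control and 715, 720.4, 747 and 562 CPM at 0.1 µM, and its log2 fold change was -0.02 (-0.21 to 0.17). SREBF1 read 314, 337, 273 and 269 CPM and 348, 322, 344 and 276 CPM, a log2 fold change of 0.11 (-0.08 to 0.30), and FADS1 gave -0.05 (-0.18 to 0.08). STARD4 and ACACA gave 0.01 and 0.02.

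A few single genes stood apart at 12 weeks without passing. At 0.01 µM ACLY, the citrate lyase that supplies cytosolic acetyl-CoA, was lower in all 4 exposed libraries (285 to 317.5 CPM) than in the control (318.4 to 366 CPM), with a log2 fold change of -0.15 (edgeR adjusted p = 0.565), and 1.42% of all genes were apart and lower. At 1 µM SREBF2 (358 to 379 against 329 to 349 CPM) and ACACA were apart and higher, with log2 fold changes of 0.11 (edgeR adjusted p = 0.525) and 0.07 (0.684), and 3.26% of all genes were apart and higher. At 0.1 µM none of the 35 was apart, where 4.47% of all genes were apart and higher and 3.86% apart and lower. The lowest edgeR adjusted p there was 0.236, for CYP51A1, lanosterol demethylase, at a log2 fold change of -0.15, and without replicate 1 of every group CYP51A1 and MVD fell (2.47% of all genes passed). Between 0.1 and 1 µM after 12 weeks none of the 35 passed, nor did any gene tested, and 7 of the 35 had an unadjusted edgeR p under 0.05 against 7.72% of all genes. The log2 difference, 0.1 over 1 µM, was positive for 3 of the 35, against 51.3% of all genes, with a median of -0.10.

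The second question was how the genes moved between 6 and 12 weeks of culture within each group. These comparisons share no libraries with each other, but they use the same 4 vials and the same libraries as the PFOS comparisons above. The falls at 0.1 µM are thus not separate from the rises over the control at 6 weeks. Time, passage number and anything handled by harvest cannot be told apart in the time comparisons. A large part of the transcriptome differed between the times: 36.6% of all 12988 genes passed in the control, 42.7% at 0.01 µM, 40.3% at 0.1 µM and 30.1% at 1 µM. The shares that rose and fell were 17.3% and 19.3% in the control, 21.4% and 21.3% at 0.01 µM, 19.7% and 20.6% at 0.1 µM and 14.2% and 15.9% at 1 µM. Among the 35, 5 rose and 4 fell in the control, and 21 fell and 2 rose at 0.1 µM. At 0.01 µM 16 fell and 2 rose, and at 1 µM 8 fell and 3 rose. In all, 25.7% of the 35 passed in the control, below the share of all genes, 51.4% at 0.01 µM and 65.7% at 0.1 µM, above it, and 31.4% at 1 µM, near it. The median log2 change over the 35 was 0.00 in the control, -0.17 at 0.01 µM, -0.21 at 0.1 µM and -0.07 at 1 µM, with all-gene medians within 0.01 of 0.

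Markers of other kinds moved in the same comparisons. The liver genes rose in the control and at 0.01 µM (4 of 4 tested in each) and none passed at 0.1 or 1 µM. Of 6 proliferation genes, 2 rose in the control, 4 rose and 1 fell at 0.01 and at 0.1 µM, and 1 rose at 1 µM, while their summed level stayed between 934 and 1050 TPM over all libraries. Of 10 granulosa markers tested, 3 to 5 fell per group and 0 to 2 rose. CYP11A1, which makes pregnenolone from cholesterol, fell in all 4 groups, with a log2 change of -2.03 in the control and -2.95 at 0.1 µM, from at most 50 counts in any 6-week library. Endothelial (2 or 3 of 4), epithelial (CDH1) and leukocyte markers (1 or 2 of 2) also fell. Of the stromal markers, PDGFRA fell in all 4 groups, COL1A1 at 0.01 µM and COL3A1 at 0.1 µM. LUM rose in the control, with a log2 change of 0.36 (edgeR adjusted p = 0.0200). PDGFRA, CDH1 and PECAM1 were near the floor, at no more than 0.69, 1.14 and 0.32 TPM in any library. The part of these in the values of the 35 genes was not tested.

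Genes of the late sterol steps fell in every group. Of the 8 genes from lanosterol to cholesterol, 4 fell in the control, 6 at 0.01 µM, 7 at 0.1 µM and 6 at 1 µM. NSDHL, EBP, SC5D and DHCR7 fell in all 4 groups. SC5D, which introduces the C5 double bond, read 61.8, 71.4, 63.9 and 66.2 CPM in the control at 6 weeks and 40.2, 40.3, 54.3 and 53.7 CPM at 12 weeks. At 0.1 µM it went from 58.5, 64.7, 58.6 and 65.2 CPM to 40.8, 41.5, 40.3 and 43.9 CPM. In both groups every 12-week library was below every 6-week library, with log2 changes of -0.48 (SE 0.10, edgeR adjusted p = 0.000248) and -0.57 (SE 0.10, 3.16e-05), and at 0.01 and 1 µM the changes were -0.49 (0.00017) and -0.41 (0.00177).

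DHCR7, the 7-dehydrocholesterol reductase that makes cholesterol in the last step, read 163, 175, 172 and 191 CPM in the 6-week control and 127, 130.2, 162 and 161 CPM at 12 weeks. At 0.01 µM it went from 166, 182, 191 and 201 CPM to 140.5, 131, 134 and 124 CPM. The second pair of groups was well apart and the first by a small margin. The log2 changes were -0.27 in the control (SE 0.07, edgeR adjusted p = 0.00323), -0.48 at 0.01 µM (SE 0.07, 2.23e-06) and -0.50 at 0.1 µM (SE 0.07, 1.48e-06), and at 1 µM -0.19 (0.035).

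EBP read 83.7, 84.3, 79.2 and 83.2 CPM in the 6-week control and 62.9, 76.2, 80.5 and 73.5 CPM at 12 weeks, and at 0.1 µM it went from 88.5, 87.8, 95.3 and 87.6 CPM to 68.3, 65.5, 67.0 and 62.2 CPM. The control groups overlapped through 12-week replicate 3, and those at 0.1 µM were far apart. The log2 change was -0.17 in the control (edgeR adjusted p = 0.0117), -0.32 at 0.01 µM (1.43e-05), -0.45 at 0.1 µM (4.37e-08) and -0.35 at 1 µM (6.08e-06). NSDHL, the sterol dehydrogenase of C4 demethylation, went from 47.1, 49.0, 50.8 and 52.3 CPM to 38.9, 34.4, 42.5 and 39.9 CPM at 0.01 µM, and from 49.8, 46.9, 50.8 and 51.0 CPM to 45.3, 45.8, 35.2 and 40.2 CPM at 1 µM. In both every 12-week library was below every 6-week one. It fell by 0.24 on the log2 scale in the control (edgeR adjusted p = 0.00546), by 0.36 at 0.01 µM (8.65e-05) and by 0.25 at 1 µM (0.00495).

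IDI1, CYP51A1, MSMO1 and TMEM97 fell in the 3 PFOS groups and did not pass in the control. For CYP51A1 the 0.1 µM libraries went from 101, 106, 106 and 114 CPM to 89.2, 81.5, 82.7 and 83.4 CPM, and those of the control from 97.7, 98.6, 99.2 and 103 CPM to 83.4, 89.8, 99.7 and 100.0 CPM. The 0.1 µM groups were apart, whereas replicates 3 and 4 of the 12-week control reached the 6-week level. The log2 change of CYP51A1 was -0.26 at 0.01 µM (edgeR adjusted p = 0.000167), -0.34 at 0.1 µM (2.91e-06) and -0.23 at 1 µM (0.000978). MSMO1 fell by 0.60 on the log2 scale at 0.1 µM (edgeR adjusted p = 6.31e-05), by 0.38 at 0.01 µM (0.00489) and by 0.36 at 1 µM (0.0114). IDI1, isopentenyl diphosphate isomerase, fell by 0.60 at 0.1 µM (0.000361). A pass in one group and none in another is no test of the difference between them, which is given at the end.

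The acetyl-CoA suppliers fell at the lower doses. ACLY went from 354, 377, 356 and 379 CPM to 316, 318, 312 and 285 CPM at 0.01 µM, with no overlap and a log2 change of -0.25 (SE 0.05, edgeR adjusted p = 0.000167). ACSS2, which makes acetyl-CoA from acetate, went from 32.5, 31.9, 33.5 and 35.5 CPM to 26.1, 23.4, 26.4 and 25.6 CPM at 0.1 µM, also apart, with a log2 change of -0.39 (SE 0.07, edgeR adjusted p = 1.26e-05). Both genes passed in both of these groups, and ACACA and FASN fell at 0.01 µM. None of the 5 genes of this step passed in the control or at 1 µM.

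Other genes rose with time. SREBF1 rose in all 4 groups, in the control from 199, 218, 205 and 222 CPM to 314, 337, 273 and 269 CPM. Every 12-week control library was above every 6-week one, at a log2 change of 0.50 (SE 0.10, edgeR adjusted p = 0.000185), with 0.36 at 0.01 µM (0.00302), 0.24 at 0.1 µM (0.0465) and 0.39 at 1 µM (0.00266). SCD rose in the control from 377, 513, 443 and 485 CPM to 591, 722, 716 and 751 CPM, also apart, at a log2 change of 0.61 (SE 0.13, edgeR adjusted p = 0.00082). In the PFOS groups, whose 6-week means were higher, SCD gave 0.15, -0.05 and 0.25 and did not pass. FADS2 and ELOVL6 rose in the control as well, with log2 changes of 0.31 (edgeR adjusted p = 0.0113) and 0.20 (0.0292).

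PMVK, phosphomevalonate kinase, rose in the control from 27.5, 34.7, 29.5 and 32.7 CPM to 34.5, 35.9, 40.8 and 39.2 CPM. Replicate 2 of 6 weeks, at 34.7 CPM, overlapped the lowest 12-week library, and the log2 change was 0.28 (SE 0.07, edgeR adjusted p = 0.00235). It also rose at 0.01 and 0.1 µM, where 2 other genes of the mevalonate step, MVD and ACAT2, fell and, at 0.1 µM, HMGCS1 and MVK as well. In the control no other gene of that step passed. Of the remaining regulators, SREBF2 and SCAP rose at 1 µM, with log2 changes of 0.11 (edgeR adjusted p = 0.0401) and 0.17 (0.011), and INSIG1 fell at 0.1 µM by 0.38 (0.0204). FDPS, GGPS1, HSD17B7, INSIG2 and ME1 passed in none of the 4 groups.

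**Figure D4:**
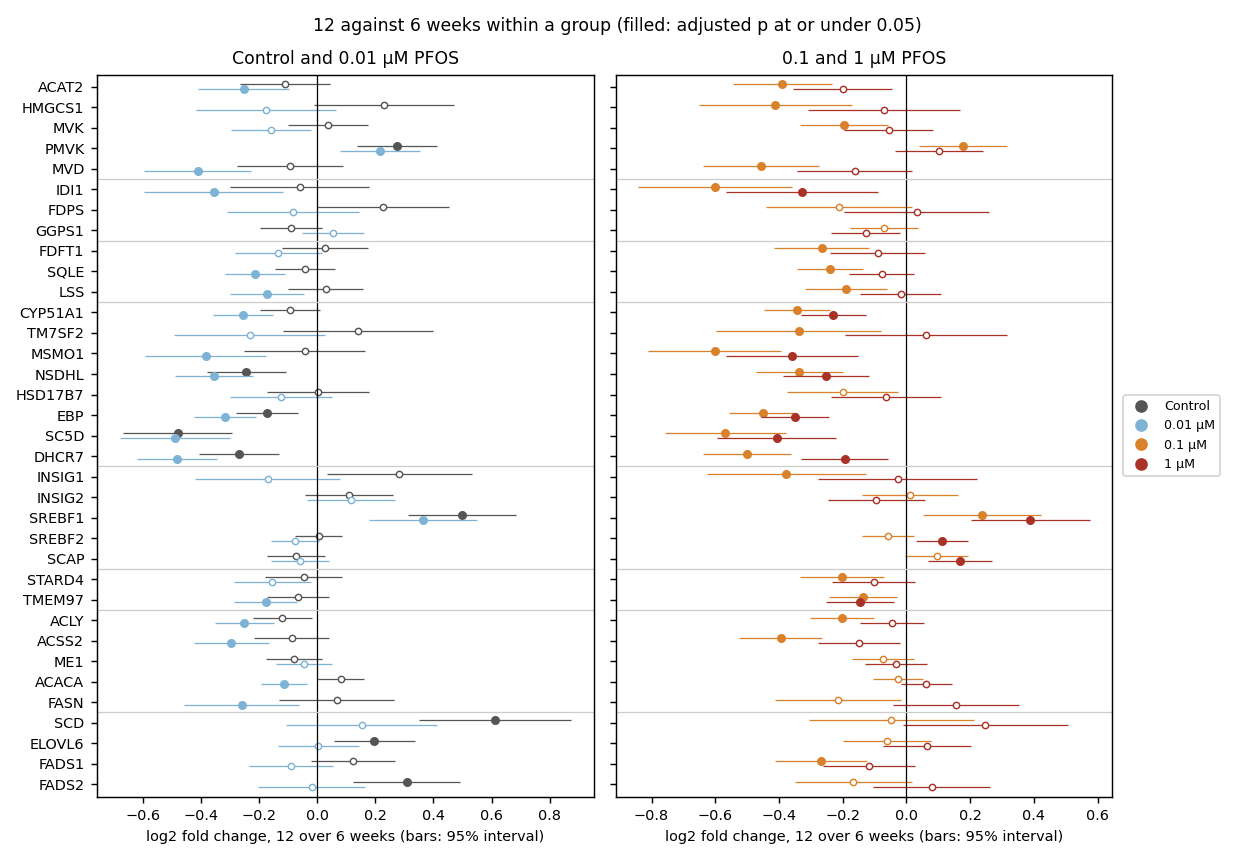
Log2 change of each of the 35 genes from 6 to 12 weeks within a group, for the control and 0.01 µM PFOS (left) and for 0.1 and 1 µM (right); bars are 95% intervals, and filled points passed at an edgeR adjusted p of 0.05 or less. NSDHL, EBP, SC5D and DHCR7 are filled left of 0 in all 4 groups and SREBF1 right of 0 in all 4, and 0.1 µM has the most filled points on the left (21).

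The number of genes that passed in the time comparisons moved with single vials at the higher doses. At 0.1 µM the 23 that passed became 15 without replicate 3, while the share of all genes that passed went from 40.3% to 31.9%. At 1 µM the 11 became 4 without replicate 3 and 4 without replicate 4, while the share of all genes went from 30.1% to 19.2% and 22.5%. At 1 µM the 12-week libraries of replicates 1 and 2 were above those of replicates 3 and 4 for many of the sterol genes: SC5D, for example, read 54.6 and 56.1 CPM against 42.1 and 40.3 CPM, and IDI1 146 and 151 CPM against 106 and 99.9 CPM. In the 12-week control the order of the vials was the other way round for the same 2 genes, with SC5D at 40.2 and 40.3 CPM in replicates 1 and 2 and at 54.3 and 53.7 CPM in replicates 3 and 4. At 0.1 µM the 4 libraries of 12 weeks lay between 40.3 and 43.9 CPM for SC5D. The median within-group coefficient of variation of the 35 genes at 12 weeks was 10.2% in the control (7.13% over all genes), 7.66% at 1 µM (6.26%) and 5.03% at 0.1 µM (5.96%).

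**Figure D5:**
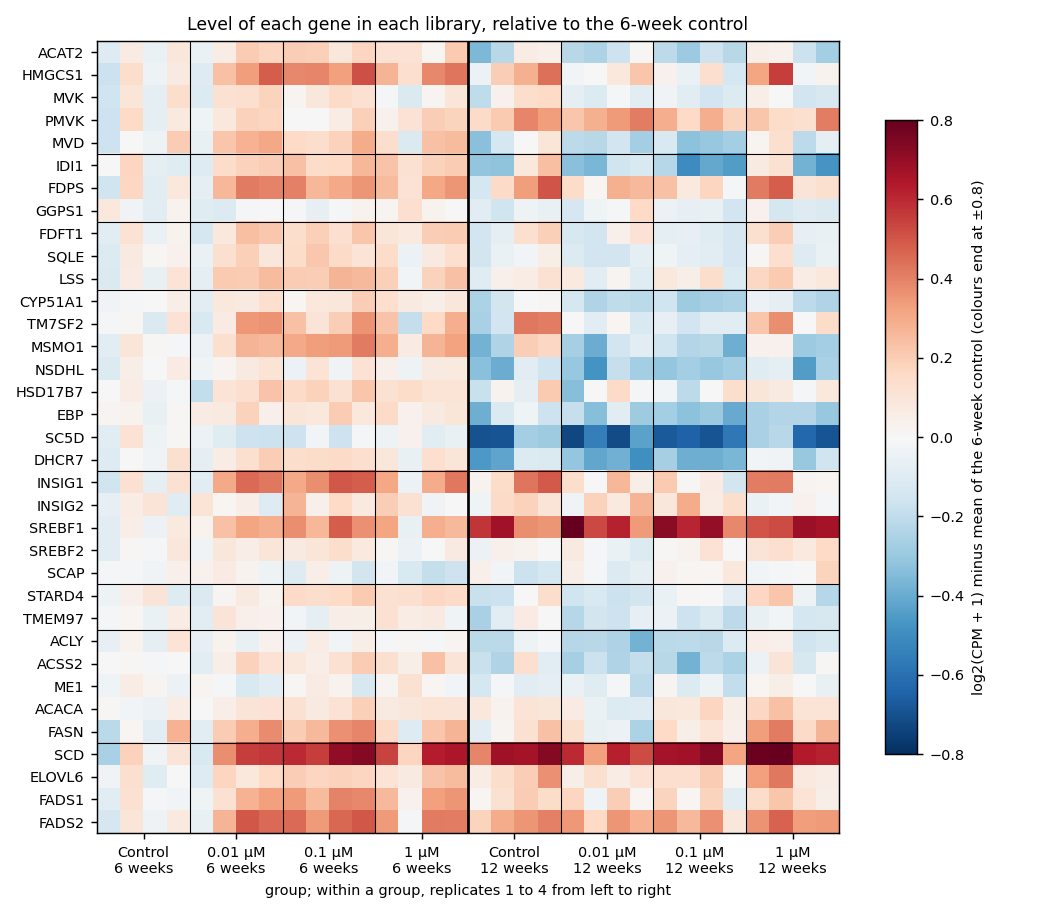
Level of each of the 35 genes (rows) in each of the 32 libraries (columns, replicates 1 to 4 from left to right within a group), as the difference of log2(CPM + 1) from the mean of the 6-week control, with the colour scale ending at 0.8 on either side. The 0.1 µM group at 6 weeks is the most even of the higher ones, SREBF1 and SCD stay high at 12 weeks, SC5D is low in all 12-week groups, and the 12-week control and 1 µM groups each divide between replicates 1 and 2 and replicates 3 and 4.

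The third question was whether the PFOS effect differed between the times, that is, whether the difference from the control at 12 weeks departed from that at 6 weeks. No member of the 35 passed at any dose by edgeR, where 0% of all 12988 genes passed at 0.01 µM, 0.208% at 0.1 µM and 0.123% at 1 µM. The change in effect was negative for 31, 32 and 28 of the 35 at the 3 doses, against 47.5%, 50.3% and 50.1% of all genes, with medians of -0.17, -0.25 and -0.08 on the log2 scale. An unadjusted edgeR p under 0.05 was found for 14, 21 and 4 of the 35, against 7.48%, 14.5% and 12.1% of all genes. These 3 comparisons share the control libraries of both times.

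At 0.1 µM the change in effect nearest to passing was that of FADS1, at -0.39 (SE 0.10, edgeR adjusted p = 0.0900). MSMO1 gave -0.56 (SE 0.15, 0.0991), EBP -0.28 (SE 0.08, 0.0991), HMGCS1 -0.64 (SE 0.17, 0.102), INSIG1 -0.66 (SE 0.18, 0.102) and SCD -0.66 (SE 0.19, 0.109). Each of these genes had a higher mean than the control at 6 weeks and a lower one at 12 weeks. By DESeq2, 7 of the 35 passed at this dose, all negative: EBP, FADS1, FADS2, HMGCS1, INSIG1, MSMO1 and SCD, where 1.96% of the genes with an adjusted p passed. Without replicate 1 of every group, edgeR passed CYP51A1 and EBP (0.370% of all genes), and DESeq2 passed none at the other doses. SCAP went the other way, at 0.17 (edgeR adjusted p = 0.263) for 0.1 µM and 0.24 (SE 0.07, 0.166) for 1 µM.

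A further 50 genes of the same pathways, among them those of SREBP processing, liver X receptor signalling, later lipid synthesis and the factors NF-Y and SP1, were counted beside the 35. At 0.1 µM after 6 weeks FAXDC2, a fatty acid hydroxylase-domain protein, rose (log2 fold change 0.28, SE 0.08, edgeR adjusted p = 0.0336) and HACD1, a dehydratase of fatty acid elongation, fell (-0.19, SE 0.04, 0.0121), and in the other PFOS comparisons with the control none passed. None of the 10 SREBP processing and degradation genes passed in any of these comparisons. Between the times, 12 of the 50 rose and 9 fell in the control, 8 and 15 at 0.01 µM, 9 and 16 at 0.1 µM and 4 and 12 at 1 µM. In all, 42%, 46%, 50% and 32% of the 50 passed, shares not far from the 36.6%, 42.7%, 40.3% and 30.1% of all genes. SOAT1, which esterifies cholesterol for storage, fell in all 4 groups, and NFYA and SP1 rose in all 4.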

How the data were processed

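RNA of 32 libraries (8 groups of 4) was poly(A)-selected, made into stranded libraries and sequenced on the DNBSEQ platform. Per the submitters' processing notes and the study's methods, reads were aligned with HISAT2 (2.0.4) or Bowtie2 (2.2.5) to GRCh38.p14 and quantified with RSEM (1.2.8). The deposited tables hold expected counts, of which 7.68% were not whole and which were rounded here. The deposited TPM values were used for levels between genes, and the deposited FPKM and normalized count tables were not used.

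Each PFOS group was compared with the control of its time in edgeR (4.0.16, R 4.3.3; TMM, low-count filter, robust quasi-likelihood) on the 16 libraries of that time, and times and their interaction on all 32, with p-values adjusted over all genes tested (Benjamini-Hochberg). An adjusted p at or under 0.05 was a pass. The study's methods name DESeq2, which was run here (version 1.42.0) as an alternative. CPM values were rescaled by TMM over all 32 libraries. An exact two-sided permutation test used log2(CPM + 1). Intervals are 95%. Self-tests on simulated counts were run first. Other alternatives were other scaling and filters, libraries left out, other sets of libraries in the fit and the vial as a block.

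The study's methods say that each vial was split over the groups, and the labels number the replicates. Equal replicate numbers were taken to mean the same vial, which pairs samples. Same-numbered libraries deviated together only weakly (mean correlation across genes -0.161 to 0.154 over pairs of groups). No replicates differed by less than sampling noise (chi-square per degree of freedom 2.35 to 16.9), so each counts as 1 sample. The 4 replicates are separate vials of a single line, so p-values measure the spread between vials.

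The 35 genes, the further 50 and the marker lists were chosen with earlier results of these data known. All 35 were counted. Values per library were given, in at least 1 comparison, for genes that passed in a PFOS comparison (at most 12 per comparison), for the 5 with the lowest p per time comparison, and for SREBF1, SREBF2, SCAP, INSIG1, INSIG2, HMGCS1, SQLE, FASN and SCD. Promoters came from RefSeq (GRCh38.p14).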

Additional observations from a re-analysis of the deposited data

Results flagged for a closer look

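In 4 of 176 groups of 4 libraries examined, a single library lay far from the other 3, by Dixon's test for one extreme value. That test picks about 1 group in 20 by chance, which is more than were found. ACLY at 0.1 µM after 12 weeks was at 343 CPM in replicate 4 against 317 to 320.1 CPM in the others. EBP at 0.1 µM after 6 weeks was at 95.3 CPM in replicate 3 against 87.6 to 88.5 CPM, and SCAP at 1 µM after 12 weeks was at 90.3 CPM in replicate 4 against 78.4 to 80.0 CPM. The summed level of the 35 genes at 1 µM after 6 weeks was 3219 TPM in replicate 2 against 3646 to 3701 TPM in the others.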

How the results depend on the processing

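At 0.1 µM after 6 weeks, where 6 of the 35 genes passed, the number was 10 with the replicate block (the vial), 12 by DESeq2, 16 with the 8 libraries of the 2 groups alone (4.63% of all genes), 3 with all 32 libraries in one fit (0.377%) and 1 without control replicate 1 (chosen after seeing the data), and 0 to 5 when any one replicate was left out of every group. At 1 µM after 6 weeks, where none passed, it was 2 by DESeq2, 2 without its replicate 2 (chosen after seeing the data) and 0 to 5 without one replicate. At 0.1 µM after 12 weeks, 0 became 0 to 2. For time, the 23 at 0.1 µM became 15 to 20, and the 11 at 1 µM 4 to 12. For the difference between times at 0.1 µM, 0 became 7 by DESeq2 and 0 to 2 without one replicate. The block changed no other count by more than 1.5 times. The cause of these changes was not tested.

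Of 371 values of named genes under the alternatives, 329 kept their direction and side of the threshold, 36 no longer passed, 6 came to pass and 0 reversed. Genes that passed neither before nor after count among those kept. Most of the losses were among the 6 genes that passed at 0.1 µM after 6 weeks. Of 12 alternatives each, MSMO1 still passed in 9, SREBF1, FADS1 and SCD in 7, STARD4 in 6 and ACACA in 4. All 26 that passed kept their sign. With 4 vials, the rises of 1.09-fold to 1.56-fold at 0.1 µM lay near the threshold.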
